A study of Mus musculus with 10 samples.

Results

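Accessible chromatin was followed at 5 genes for Wnt ligands of the caudal embryo, Wnt3, Wnt3a, Wnt5a, Wnt5b and Wnt8a. The regions are those left after the peak lists of all 10 ATAC-seq libraries were merged. A region was given to a gene when that gene's annotated span was the nearest protein-coding span within 50 kb of the region's centre. Of 246799 regions, 73 fell to these genes: 27 to Wnt5b, 16 to Wnt3a, 15 to Wnt5a, 9 to Wnt8a and 6 to Wnt3. Of the 73 centres, 48 lay inside a gene span, the median width was 217 bp, 8 regions had a peak in all 10 libraries and 24 had a peak in 1 library. The filter on low counts left 63 regions to test, and the other 10 averaged at most 0.556 CPM, the count relative to the scaled library total.

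Cells of ES-Bruce4, a C57BL/6 mouse embryonic stem cell line, labelled WT, were grown on fibroblast feeders, depleted of them and differentiated toward neuromesodermal progenitors, the posterior cells that give rise to spinal cord and paraxial mesoderm. All cultures received bFgf at 10 ng/ml from day 0. The medium of day 2 onward held the Gsk3 inhibitor CHIR99021 at 5 µM, which activates Wnt signalling through beta-catenin, and the labels do not say whether the day 2 cells were taken before it was added. The 5 groups of 2 libraries are day 2, labelled epiblast stem cells, then day 3, day 6 and day 7, labelled neuromesodermal progenitors, and day 7 after 24 h of human Gdf11 at 50 ng/ml, a ligand of the TGF-beta family. The labels do not say that replicates were separate cultures, so p-values measure only the spread between these libraries, which may be technical.

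Wnt ligands are lipid-modified secreted proteins that bind Frizzled receptors. With the co-receptors Lrp5 and Lrp6 they stabilise beta-catenin, which acts with Tcf and Lef factors on target genes, while other ligands act through Ror and Ptk7 receptors on cell polarity and movement. In the mouse embryo Wnt3 is needed to form the primitive streak, Wnt3a maintains the tail bud progenitors and the paraxial mesoderm they produce, and Wnt8a is expressed in the posterior epiblast and acts partly together with Wnt3a. Wnt5a is needed for axis elongation, and Wnt5b is its close relative, also expressed in the primitive streak and tail bud. An accessible region shows open chromatin, not transcription, and nearness to a gene does not show that the region regulates it.

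The libraries held 7150334 to 12335735 counts over all regions, replicate 1 was the deeper one in each group, and mitochondrial regions took 9.25% to 13.4% of the counts. CPM below are counts scaled by these totals and by TMM factors. Markers of the caudal epiblast and neuromesodermal progenitors rose at 9 of 12 genes from day 2 to day 3, against 12.2% of all genes. They fell at 8 of 12 with Gdf11 against day 7, against 11.3% of all. Their summed accessibility was 425 to 472 CPM on day 2, 783 to 794 on day 3 and 695 to 696 on day 6. It was 731 to 816 CPM on day 7 and 529 to 557 with Gdf11. Epiblast and pluripotency markers fell at 6 of 8 genes from day 2 to day 3, against 10.4% of all genes. They fell again at 6 of 8 from day 3 to day 6, against 10.8% of all. Their summed values were 614 to 650, 468 to 493, 325 to 327, 294 to 302 and 316 to 329 CPM over the same groups. The summed accessibility of 7 neural progenitor markers was 667 to 677 CPM on day 2, 599 to 640 on day 3, 725 to 755 on day 6, 899.6 to 940.5 on day 7 and 555 to 631 with Gdf11, where 6 of 7 were lower than on day 7. The 8 paraxial mesoderm markers summed to 241 to 248 CPM on day 2, 249.0 to 249.4 on day 3 and 228 to 234 on day 6. Their sums were 242 to 266 CPM on day 7 and 195 to 198 with Gdf11. With Gdf11 against day 7, 3 of the 8 were lower and 0 higher, against 11.3% of all genes lower. The 6 endoderm markers summed to 242 to 296 CPM over the 10 libraries. From day 3 to day 6, 1 of the 6 was higher, Ttr (4.02-fold), and 1 was lower. The 8 fibroblast markers, for feeder cells, summed to 219 to 249 CPM on day 2, 232 to 233 on day 3, 241 to 248 on day 6, 269 to 295 on day 7 and 256 to 278 with Gdf11, and no marker of any list was at 0 in a group. The caudal and epiblast markers moved in the comparisons of day 2, day 3 and day 6 in which ligand genes were called. Of the 7 neural markers, 4 were higher on day 6 against day 3, against 9.47% of all genes. On day 7 against day 6, where Wnt3a was called, 3 of the 7 were higher, against 3.55% of all genes. The part of these markers in the ligand results was not tested. With Gdf11 against day 7 and TMM scaling, caudal and neural markers and 3 of 8 paraxial mesoderm markers fell while no ligand gene passed the test. With library size only, 987 of all genes were higher and 592 lower, in place of 390 and 2136. The marker lists were not counted on that scale. In such bulk samples, fewer cells with a region open and less opening per cell cannot be told apart.

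At the gene level, the counts of all regions of a gene were summed. From day 2 to day 3, Wnt5b rose 1.95-fold and Wnt5a 1.61-fold. From day 3 to day 6, Wnt8a fell 2.27-fold, Wnt5b 1.49-fold and Wnt3 1.48-fold. From day 6 to day 7 Wnt3a rose 1.54-fold, and with Gdf11 none of the 5 differed from untreated day 7 by the test. A gene was called at an adjusted p under 0.05 in edgeR's quasi-likelihood test, adjusted over the 18954 genes tested. By that rule 2 of 5 were called on day 3 against day 2, both higher, where 22.6% of all genes were called (12.2% higher and 10.4% lower). On day 6 against day 3, 3 of 5 were called, all lower, against 20.3% of all (9.47% higher and 10.8% lower). On day 7 against day 6, 1 of 5 was called against 4.23% of all (3.55% higher and 0.681% lower), and with Gdf11 against day 6, 1 of 5 was higher against 1.91% of all called (0.638% higher and 1.27% lower). With Gdf11 against day 7 the count was 0 of 5 in edgeR, against 13.3% of all genes (2.06% higher and 11.3% lower). It was also 0 in DESeq2 and 0 at an unadjusted p under 0.05. With libraries scaled by size only it was 1, Wnt5b, higher, where 987 of the 18954 genes were higher and 592 lower. The comparisons share libraries, since day 3, day 6, day 7 and the Gdf11 group each enter more than 1 of them.

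**Figure D1:**
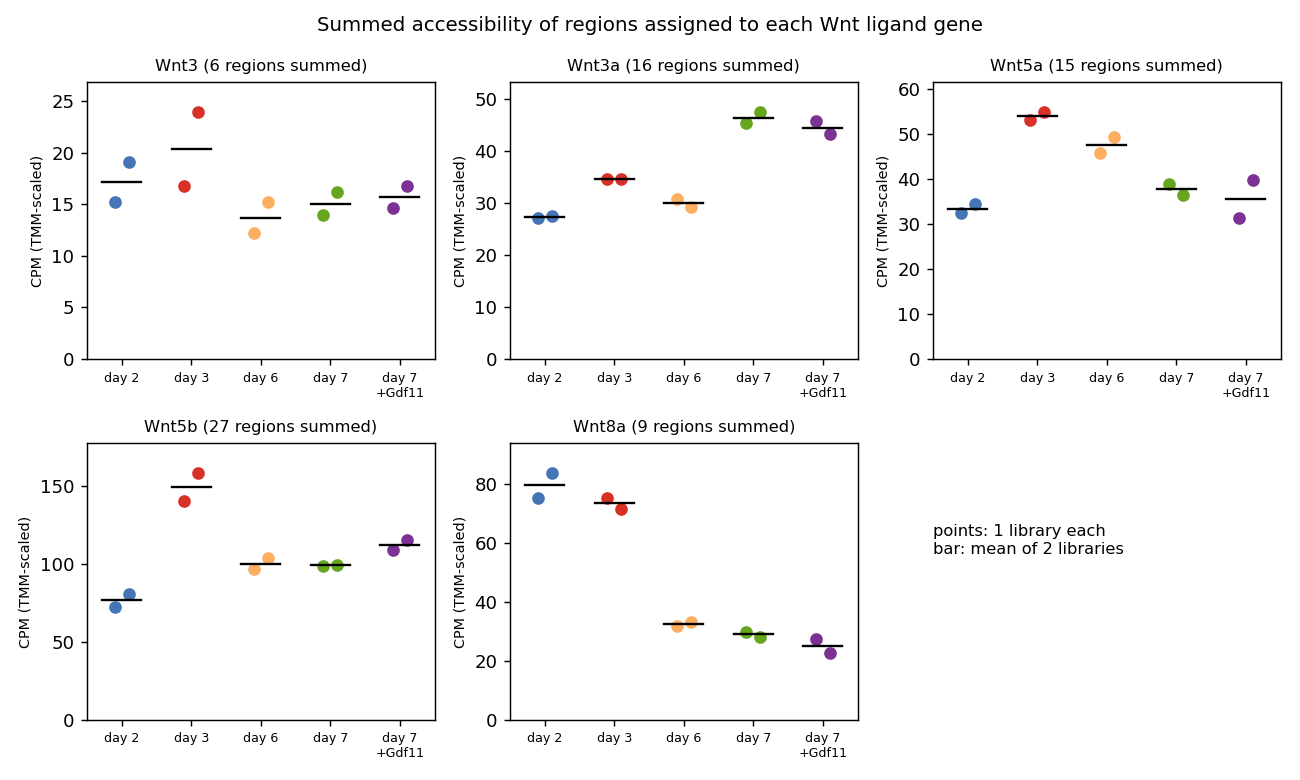
Summed CPM of the regions of each gene in the 5 groups, with 1 point per library and a bar for the mean of 2 libraries. Wnt5b stands highest on day 3 (140 and 158 CPM), Wnt8a falls to 31.7 and 33.1 CPM by day 6, and Wnt3a is highest on day 7 (45.3 and 47.4 CPM) and with Gdf11.

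Single regions were tested in the same way, over the 173175 regions that passed the filter. From day 2 to day 3, 10 of the 63 tested regions rose and 1 fell, or 17.5%, against 13.2% of all (8.82% higher and 4.35% lower), and the median log2 change was 0.38 against 0.07 for all. From day 3 to day 6, 3 rose and 11 fell, or 22.2% against 15.2% of all (9.19% higher and 6.05% lower), with a median of -0.34 against 0.02. From day 6 to day 7, 1 rose and 1 fell, or 3.17% against 1.18% of all (0.974% higher and 0.207% lower). Gdf11 against day 7 again gave 1 and 1, or 3.17% against 3.73% of all (1.09% higher and 2.65% lower), a share near the background. Between day 6 and day 7 with Gdf11, 2 rose and 2 fell, or 6.35% against 2.4% of all (1.06% higher and 1.34% lower). Wnt5b had 5 of the 10 regions that rose on day 3 and 6 of the 11 that fell by day 6, all inside its span. DESeq2 called 7 regions, all higher, on day 3 against day 2. These counts rest on single libraries: on day 3 against day 2 it was 7 without day 3 replicate 2 and 9 or 10 without another, and on day 6 against day 3 leaving out replicate 1 or 2 of day 6 gave 7 and 10, and leaving out replicate 1 or 2 of day 3 gave 12 and 9.

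**Figure D2:**
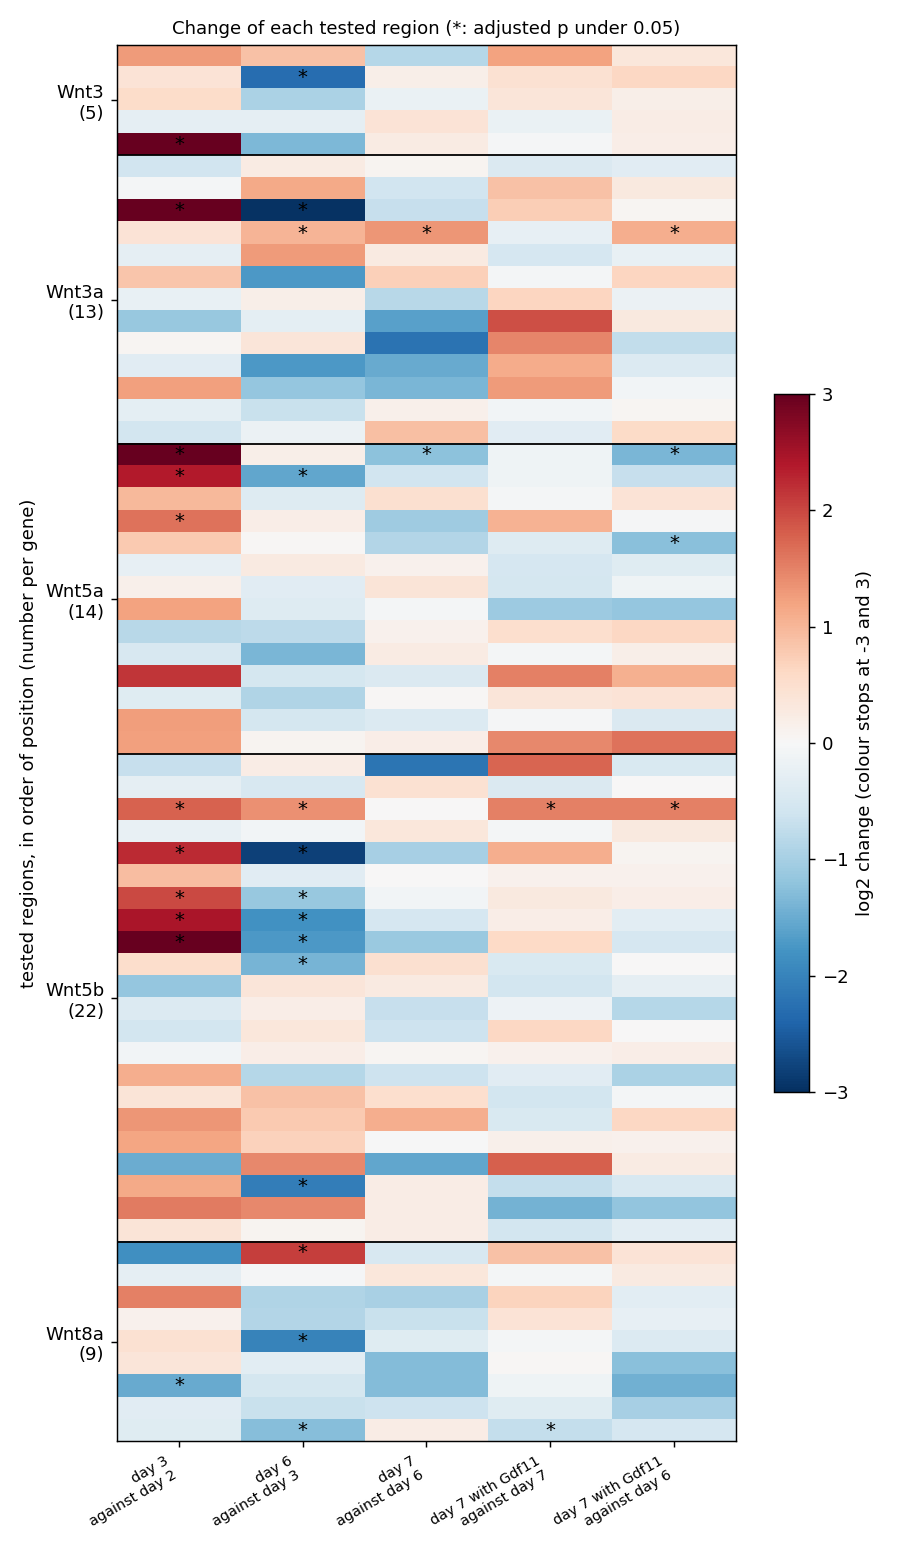
Log2 change of each of the 63 tested regions, in order of position within each gene, for the 5 comparisons, with an asterisk where the adjusted p was under 0.05. The 10 regions that rose on day 3 include 5 at Wnt5b, 4 of which are among the 11 that fell by day 6.

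Per kb of accessible sequence, Wnt8a had the highest level of the 5 on day 2, at 29.9 ± 2.3 CPM per kb (SD, n = 2), and Wnt5b, Wnt5a, Wnt3 and Wnt3a followed at 10.2 ± 0.749, 9.53 ± 0.399, 8.73 ± 1.37 and 7.54 ± 0.0745. Wnt5b, Wnt5a and Wnt3 lay within their spread of one another on that day, as did Wnt3 and Wnt3a. On day 3 the order was Wnt8a at 27.7 ± 1.02, Wnt5b at 19.8 ± 1.69, Wnt5a at 15.4 ± 0.372, Wnt3 at 10.4 ± 2.57 and Wnt3a at 9.56 ± 0.0314 CPM per kb, with Wnt3 and Wnt3a within the spread. On day 6 Wnt5a stood at 13.6 ± 0.727, Wnt5b at 13.3 ± 0.646 and Wnt8a at 12.2 ± 0.37 CPM per kb. Wnt3a followed at 8.30 ± 0.29 and Wnt3 at 6.96 ± 1.06. Wnt5a and Wnt5b lay within the spread of each other, as did Wnt3a and Wnt3. On day 7 Wnt5b and Wnt3a did not differ beyond their spread, at 13.1 ± 0.0541 and 12.8 ± 0.425. Below them stood Wnt8a and Wnt5a at 10.9 ± 0.503 and 10.7 ± 0.52, also within their spread, and Wnt3 at 7.66 ± 0.811. With Gdf11 the level per kb was 14.9 ± 0.564 at Wnt5b, 12.3 ± 0.489 at Wnt3a and 10.1 ± 1.7 at Wnt5a. It was 9.38 ± 1.27 at Wnt8a and 8.00 ± 0.757 at Wnt3. From Wnt3a down, each gene lay within the spread of the next in this order.

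**Figure D3:**
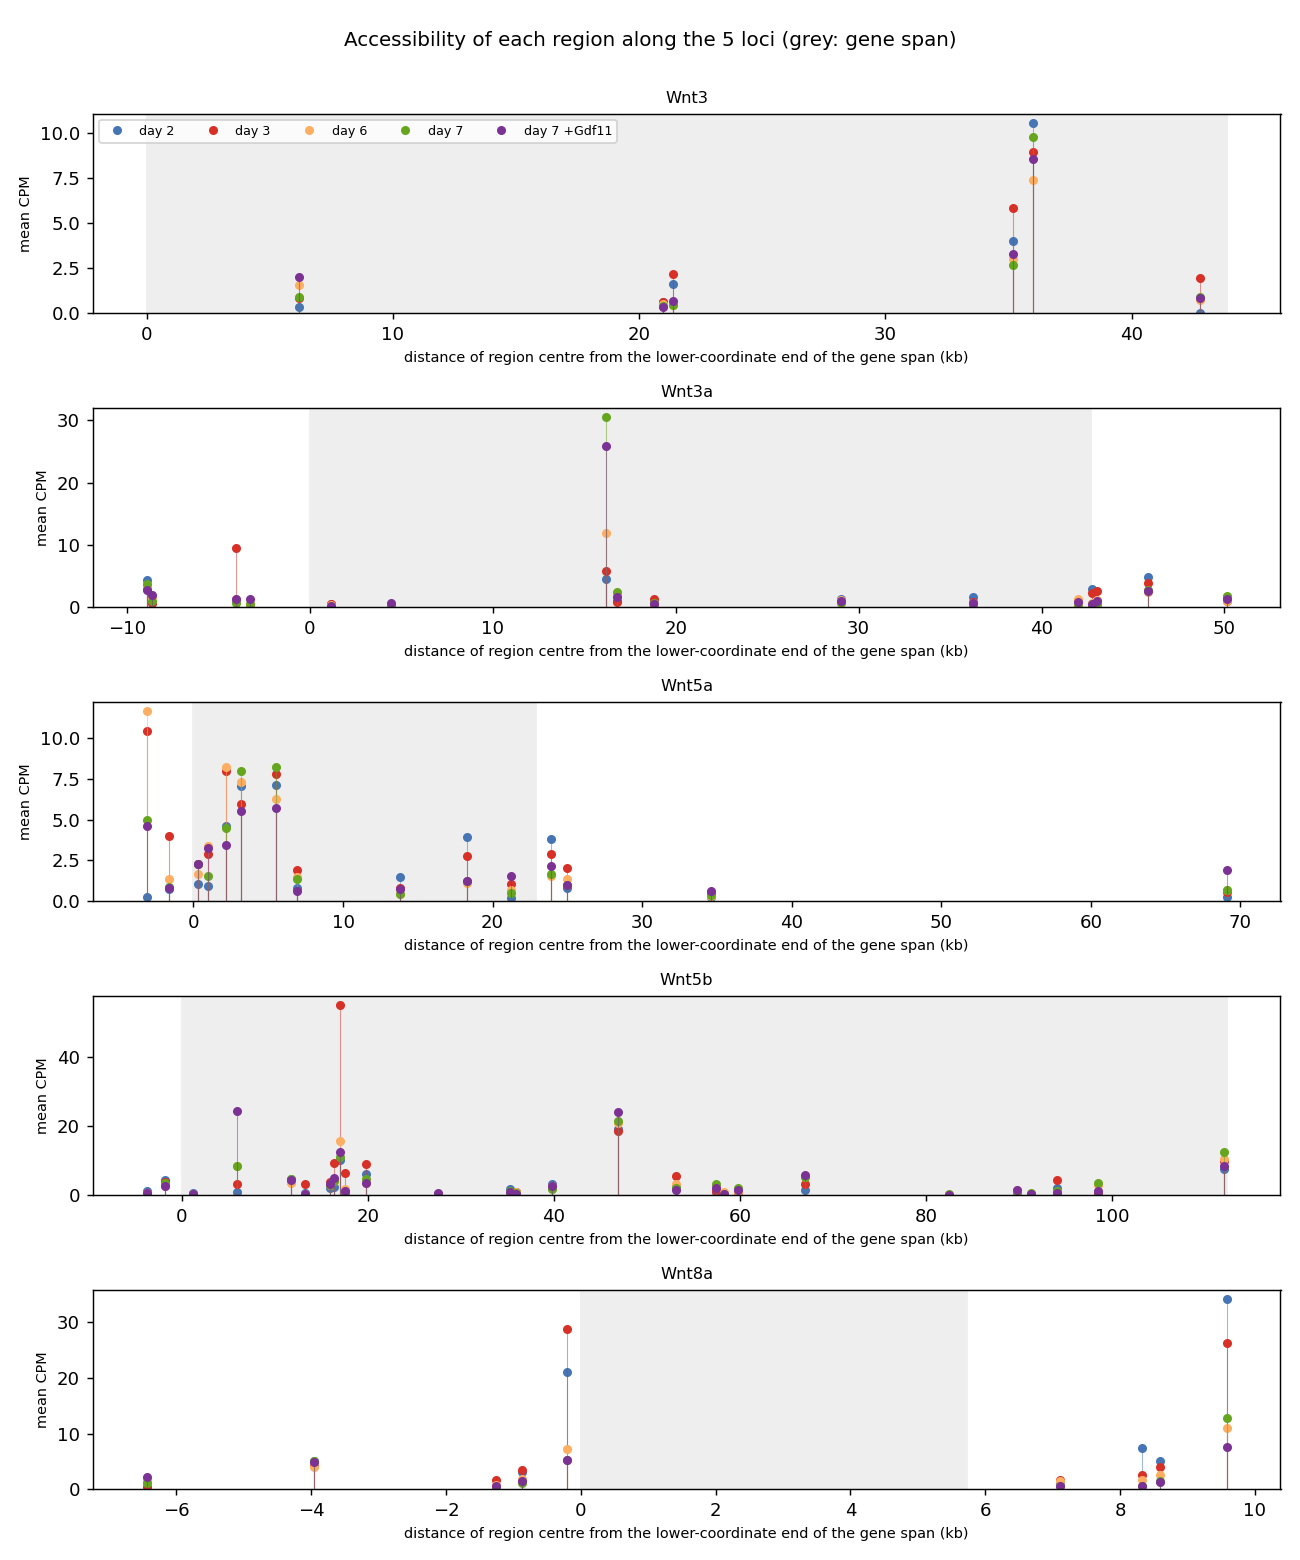
Mean CPM of each region against the distance of its centre from the lower-coordinate end of the gene span (kb, grey band: span), with 1 colour per group and 1 panel per gene. A few regions carry most of the change: at Wnt5b a region near 17 kb on day 3 (55.1 CPM) and at Wnt3a a region near 16 kb on day 7 (30.5 CPM).

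Wnt5b, on the minus strand of chromosome 6 (chr6:119432531-119544824, mm10), had the most regions and the steepest gene-level rise. Its sums were 72.5 and 80.5 CPM on day 2, 140 and 158 on day 3, 96.7 and 104 on day 6, 98.7 and 99.3 on day 7 and 109 and 115 with Gdf11. Both day 3 libraries stood above all others, both day 2 libraries below all others, and the day 6 and day 7 values overlapped. The change was 0.96 ± 0.10 on the log2 scale (SE) on day 3 against day 2 (edgeR adjusted p = 1.35e-09) and -0.58 ± 0.09 on day 6 against day 3 (edgeR adjusted p = 1.86e-05). With Gdf11 it was 0.18 against day 7, with a 95% interval of -0.01 to 0.36 (edgeR adjusted p = 0.223), and it passed the test when libraries were scaled by size only (0.34, adjusted p = 0.0106).

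RefSeq annotates 3 starts for Wnt5b, at the upstream end of the span and at points inside it. The promoter windows of the upstream and of the most internal start are shown because the regions over them behaved differently. Each runs from 250 bases before to 50 bases after the start, 5′ to 3′ on the minus strand, from the RefSeq annotation of GRCm38.p6 (mm10), at chr6:119449337-119449636 and chr6:119544298-119544597. Capitals mark matches to the Tcf/Lef core CTTTGA, the Cdx core TTTATNG and the Smad motif CAGAC, searched on both strands, with no overlap between them in these windows.
Wnt5b internal start: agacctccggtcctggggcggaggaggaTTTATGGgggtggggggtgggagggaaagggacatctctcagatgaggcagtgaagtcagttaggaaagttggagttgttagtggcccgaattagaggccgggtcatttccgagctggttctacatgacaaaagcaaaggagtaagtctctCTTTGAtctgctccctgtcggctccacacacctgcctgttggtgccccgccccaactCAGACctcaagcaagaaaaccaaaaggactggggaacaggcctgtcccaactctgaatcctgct
Wnt5b upstream start: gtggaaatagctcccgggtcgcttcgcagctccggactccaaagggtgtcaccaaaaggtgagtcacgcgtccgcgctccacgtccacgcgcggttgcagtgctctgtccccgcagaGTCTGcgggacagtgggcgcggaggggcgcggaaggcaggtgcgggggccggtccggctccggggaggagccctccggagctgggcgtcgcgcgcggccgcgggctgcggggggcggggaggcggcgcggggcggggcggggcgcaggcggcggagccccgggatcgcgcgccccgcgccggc
The internal window holds all of the motifs, TTTATGG at bases 29 to 35, CTTTGA at bases 180 to 185 and CAGAC at bases 237 to 241, and has a GC content of 55.0%. The upstream window holds the reverse complement of the Smad motif, GTCTG, at bases 118 to 122, with a GC content of 78.0%. The window of the remaining start, chr6:119467162-119467461, overlaps no region and holds none of the motifs. Of 32851 RefSeq promoter windows of that length, 16.0% hold the Tcf/Lef core, 10.9% the Cdx core, 49.6% the Smad motif and 0.852% all of them. These are letter matches, and no factor binding was measured. The windows shown were picked after their accessibility was seen, so the shares do not measure how unusual the internal window is.

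The region over the internal start (chr6:119449155-119449979, 825 bp) covers the whole window and had a peak in all 10 libraries. It stood at 8.89 and 11.5 CPM on day 2, 55.2 and 55.0 on day 3, 14.5 and 17.0 on day 6, 10.1 and 12.1 on day 7 and 13.1 and 11.9 with Gdf11. Day 3 was above every other library by a wide margin, and the later groups lay near day 2. The change was 2.44 ± 0.20 on day 3 against day 2 (edgeR adjusted p = 7.36e-15) and -1.82 ± 0.19 on day 6 against day 3 (edgeR adjusted p = 5e-11). It made up 13.3% of the Wnt5b sum on day 2 and 36.9% on day 3.

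Of its neighbours within 1 kb of the internal start, 2 moved alike and 1 rose less on day 3. The region at chr6:119450003-119450211 held 0.105 and 0.392 CPM on day 2, 4.25 and 8.52 on day 3, 2.08 and 1.64 on day 6, 0.54 and 1.33 on day 7 and 1.43 and 1.18 with Gdf11. It rose by 4.66 ± 0.65 on the log2 scale on day 3 (edgeR adjusted p = 2.04e-07), from 4 counts to 109. The region at chr6:119448729-119449022 held 3.14 and 1.57 CPM on day 2 and 10.6 and 8.08 on day 3, a rise of 1.97 ± 0.35 (edgeR adjusted p = 2.33e-05). Both fell by day 6, by 1.72 and 1.13, but these falls did not pass without single libraries: the first not without day 3 replicate 2 (-1.18) or day 6 replicate 2 (-1.58), the other not without day 3 replicate 1 (-0.91) or either day 6 library (-1.23 and -1.05). The remaining neighbour, chr6:119448409-119448597, averaged 2.05 CPM on day 2, 3.91 on day 3, 3.02 on day 6, 3.08 on day 7 and 3.32 with Gdf11. It was called in none of the 5 comparisons and had no peak in a day 3 library. Together the 4 regions within 1 kb of the internal start averaged 14.8 CPM on day 2, 74.7 on day 3, 24.9 on day 6, 19.3 on day 7 and 22.1 with Gdf11, and the 23 other Wnt5b regions 61.7, 74.7, 75.3, 79.7 and 89.9. The summed level around the internal start was highest on day 3, that of the other regions was highest with Gdf11, and this split is a description with no test.

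The region over the upstream start (chr6:119544177-119544917) had a peak in all 10 libraries and held 7.42 and 7.98 CPM on day 2, 9.77 and 10.2 on day 3, 11.1 and 9.85 on day 6, 11.2 and 13.7 on day 7 and 7.93 and 9.15 with Gdf11. It was called in none of the 5 comparisons, and its change on day 3 against day 2 was 0.38, with a 95% interval of -0.11 to 0.86. Over the 10 libraries a further region, chr6:119478936-119479819, had the same mean as the region over the internal start, 20.9 CPM. It overlaps an end of the span of Fbxl14, a gene nested in the Wnt5b span that encodes an F-box protein. The strand of Fbxl14 was not used, so this end may be its start. The region stood at 15.0 to 26.5 CPM in the 10 libraries and was not called either. Without it the Wnt5b sum rose by 1.19 ± 0.10 on day 3 and fell by 0.72 ± 0.10 by day 6.

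A further region inside Wnt5b, at chr6:119438170-119438740, followed another course. It held 0.523 and 1.44 CPM on day 2, 3.74 and 2.60 on day 3, 9.19 and 7.66 on day 6, 8.91 and 7.95 on day 7 and 21.9 and 26.8 with Gdf11. The Gdf11 libraries stood above all others, day 6 and day 7 overlapped, and the 3 levels of day 2, day 3 and day 6 did not. With Gdf11 the region was higher by 1.52 ± 0.25 on the log2 scale, or 2.86-fold, than on day 7 (edgeR adjusted p = 2.75e-05). Against day 6 it was higher by 1.51 ± 0.24 (edgeR adjusted p = 4.59e-05). It had risen by 1.78 ± 0.42 on day 3 (edgeR adjusted p = 0.00184), which did not pass without day 2 replicate 1 (1.17) or day 3 replicate 1 (1.43), and by 1.38 ± 0.29 from day 3 to day 6 (edgeR adjusted p = 0.000417). It was the only region of the 63 called higher with Gdf11 against day 7, and it made up 8.5% of the Wnt5b sum on day 7 and 21.7% with Gdf11. The other 3 Wnt5b regions that fell from day 3 to day 6, by 1.40 to 2.81 on the log2 scale, each lost the call without at least 1 of the 4 libraries.

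**Figure D4:**
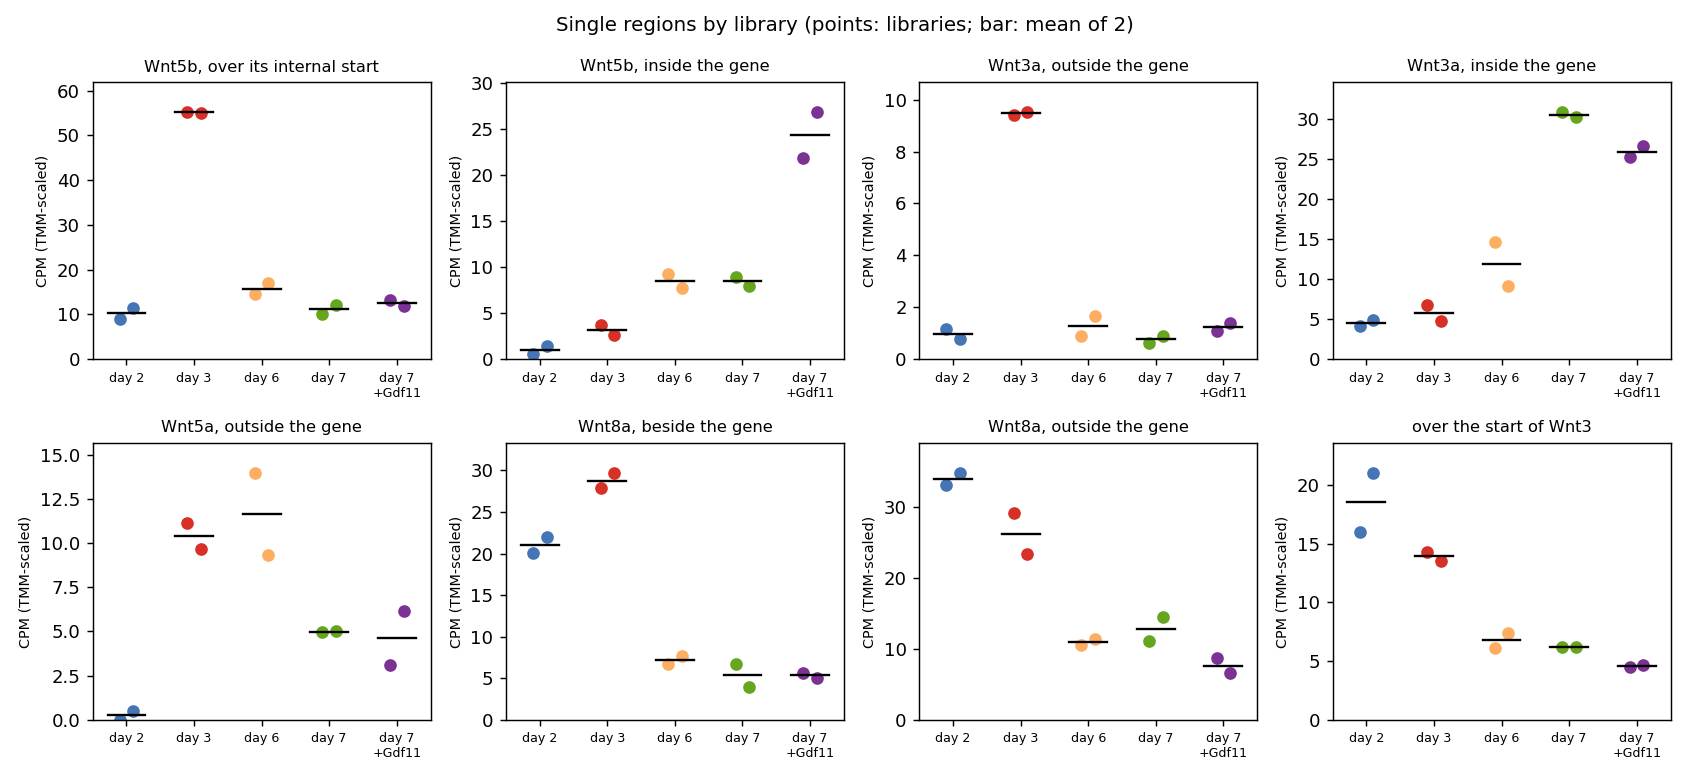
CPM of 8 single regions in the 5 groups, with 1 point per library and a bar for the mean of 2 libraries. The Wnt5b internal start is high on day 3 alone (55.2 and 55.0 CPM), another Wnt5b region is highest with Gdf11 (21.9 and 26.8 CPM), and the Wnt3a region inside the gene is highest on day 7 (30.9 and 30.2 CPM).

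Wnt5a, on chromosome 14 (chr14:28504543-28527448), rose on day 3 as well. Its sums were 32.4 and 34.4 CPM on day 2, 53.0 and 54.8 on day 3, 45.8 and 49.4 on day 6, 39.0 and 36.4 on day 7 and 31.3 and 39.7 with Gdf11. Day 3 was the highest group, day 6 the next, and day 2 overlapped the Gdf11 group. The change was 0.69 ± 0.13 on day 3 against day 2 (edgeR adjusted p = 0.0002). On day 7 against day 6 it was -0.33 ± 0.13 (edgeR adjusted p = 0.156), which passed with size-only scaling (-0.43, adjusted p = 0.041) and in a fit of those 2 groups alone (-0.36, adjusted p = 0.0287). With Gdf11 against day 6 it was -0.42 ± 0.13 (edgeR adjusted p = 0.0812), which passed with a 100 kb window (-0.49, adjusted p = 0.0273) or without Gdf11 replicate 2 (-0.62, adjusted p = 0.0282).

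At Wnt5a 3 regions were called higher on day 3, all at the lower-coordinate end of the span. The region at chr14:28501180-28501648, centred 3129 bp outside the span, held 0 and 0.523 CPM on day 2, 11.1 and 9.67 on day 3, 14 and 9.30 on day 6, 4.95 and 5.01 on day 7 and 3.12 and 6.14 with Gdf11. It was near 0 on day 2, overlapped between day 3 and day 6, and was lower in all 4 libraries of day 7 than in the day 3 and day 6 libraries. The rise on day 3 was 5.41 ± 0.53 on the log2 scale (edgeR adjusted p = 6.27e-12), from 4 counts to 198, and 9.65 without day 2 replicate 2, which held all 4 counts. It fell by 1.24 ± 0.31 from day 6 to day 7 (edgeR adjusted p = 0.0237) and by 1.37 ± 0.31 to day 7 with Gdf11 (edgeR adjusted p = 0.00453). Neither fall was stable: the one to day 7 did not pass in DESeq2 (-1.21) or without day 6 replicate 1 (-0.89), day 7 replicate 1 (-1.22) or day 7 replicate 2 (-1.22), and the other not without day 6 replicate 1 (-1.03) or Gdf11 replicate 1 (-0.95).

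Beside it, the region at chr14:28502819-28502991 rose from 0.836 and 0.654 CPM to 2.72 and 5.34 on day 3 (2.37 ± 0.59, edgeR adjusted p = 0.00349), a call lost without day 3 replicate 2 (1.82). Its fall to 1.2 and 1.5 CPM by day 6 (-1.56 ± 0.54, edgeR adjusted p = 0.0409) was lost in DESeq2 (-1.57) and without day 3 replicate 2 (-1.03), day 6 replicate 1 (-1.36) or day 6 replicate 2 (-1.70). The region at chr14:28505388-28505620, inside the span, rose from 0.836 and 1.05 to 2.89 and 2.89 CPM on day 3 (1.62 ± 0.51, edgeR adjusted p = 0.0245), a call lost in DESeq2 and without any 1 of the 4 libraries (1.45 to 1.72). The region at chr14:28506549-28506940 was lower with Gdf11, at 2.53 and 4.31 CPM, than on day 6, at 6.55 and 9.85 (-1.26 ± 0.33, edgeR adjusted p = 0.0198), but not by the test in DESeq2, without day 6 replicate 2 (-0.95) or without Gdf11 replicate 1 (-0.91). The region with the highest mean of the gene, chr14:28509940-28510239, stayed at 4.64 to 8.83 CPM over the 10 libraries and was not called.

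Wnt3a, on the minus strand of chromosome 11 (chr11:59248036-59290751), was highest at the end of the series. Its sums were 27.1 and 27.5 CPM on day 2, 34.7 and 34.5 on day 3, 30.8 and 29.3 on day 6, 45.3 and 47.4 on day 7 and 45.7 and 43.2 with Gdf11. The day 7 and Gdf11 groups overlapped and stood above all earlier libraries. The change was 0.62 ± 0.13 on day 7 against day 6 (edgeR adjusted p = 0.00275) and 0.56 ± 0.13 with Gdf11 against day 6 (edgeR adjusted p = 0.0127), of which the latter did not pass without day 6 replicate 1 (0.60), day 6 replicate 2 (0.54) or Gdf11 replicate 1 (0.52). With Gdf11 against day 7 it was -0.06, with a 95% interval of -0.30 to 0.19, and on day 3 against day 2 it was 0.34 ± 0.14 (edgeR adjusted p = 0.0615).

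Behind the Wnt3a sums stood 2 regions with different courses. The region at chr11:59263881-59264606, inside the gene and 26145 bp from its start, held 4.18 and 4.84 CPM on day 2, 6.79 and 4.76 on day 3, 14.6 and 9.17 on day 6, 30.9 and 30.2 on day 7 and 25.2 and 26.6 with Gdf11. Levels rose from day 3 to day 6 and again to day 7 with no overlap, and the Gdf11 group lay just under day 7. The change was 1.03 ± 0.24 on day 6 against day 3 (edgeR adjusted p = 0.0011), 1.33 ± 0.21 on day 7 against day 6 (edgeR adjusted p = 4.98e-05) and 1.09 ± 0.21 with Gdf11 against day 6 (edgeR adjusted p = 0.000622). The first did not pass without day 6 replicate 1 (0.65) and the last not without day 6 replicate 2 (0.83). This region alone made up 16.5% of the Wnt3a sum on day 2 and 65.9% on day 7.

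The other, at chr11:59243823-59244206 and 4022 bp beyond the downstream end of the gene, was open on day 3 alone. It held 1.15 and 0.784 CPM on day 2, 9.43 and 9.53 on day 3, 0.879 and 1.64 on day 6, 0.63 and 0.884 on day 7 and 1.10 and 1.40 with Gdf11. Peaks were called there in both day 3 libraries and in no other. It rose by 3.25 ± 0.45 (edgeR adjusted p = 1.75e-07) and fell by 2.97 ± 0.43 (edgeR adjusted p = 5.48e-07), and it made up 27.4% of the Wnt3a sum on day 3. The region over the annotated start of Wnt3a, chr11:59290660-59290885, was low throughout, at 2.51 and 3.27 CPM on day 2, 2.12 and 2.45 on day 3, 0.479 and 0.958 on day 6, 0.09 and 0.442 on day 7 and 0.675 and 0.323 with Gdf11. Its change from day 3 to day 6 was -1.72, with a 95% interval of -3.01 to -0.44 (edgeR adjusted p = 0.0649). The RefSeq window over that start has a GC content of 86.3% and holds none of the motifs searched.

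Wnt8a, on chromosome 18 (chr18:34542327-34548061), had the largest change of the 5 from day 3 to day 6. Its sums were 75.1 and 83.7 CPM on day 2, 75.3 and 71.4 on day 3, 31.7 and 33.1 on day 6, 29.9 and 28 on day 7 and 27.3 and 22.5 with Gdf11. The 4 early libraries stood above the 6 later ones, and day 2 overlapped day 3. The change was -1.18 ± 0.12 on day 6 against day 3 (edgeR adjusted p = 7.42e-09), -0.16 on day 7 against day 6 and -0.22 with Gdf11 against day 7, with 95% intervals of -0.42 to 0.10 and -0.48 to 0.05 for the last 2. None of its 9 regions was centred inside the short span, and 2 of them carried most of the sum.

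The region over the lower-coordinate end of Wnt8a, chr18:34541834-34542421, held 20.1 and 22.0 CPM on day 2, 27.9 and 29.7 on day 3, 6.71 and 7.66 on day 6, 6.75 and 3.98 on day 7 and 5.65 and 5.06 with Gdf11. It fell by 2.01 ± 0.22 from day 3 to day 6 (edgeR adjusted p = 6.65e-10), or 4.03-fold. The region at chr18:34551605-34552213, centred 3848 bp beyond the other end, held 33.2 and 34.9 CPM on day 2, 29.2 and 23.4 on day 3, 10.5 and 11.4 on day 6, 11.1 and 14.6 on day 7 and 8.69 and 6.57 with Gdf11. It fell by 1.28 ± 0.20 from day 3 to day 6 (edgeR adjusted p = 3.06e-06), with no overlap between early and late groups. It was the only region of the 63 called lower with Gdf11 against day 7 (-0.72 ± 0.22, edgeR adjusted p = 0.0474), a call lost with size-only scaling (-0.55), with RLE size factors (-0.71), in DESeq2 (-0.74), in a fit of those groups alone (-0.68) and without day 7 replicate 2 (-0.55) or Gdf11 replicate 2 (-0.58). Of the smaller regions, chr18:34550541-34550746 fell from 5.12 and 9.81 CPM on day 2 to 3.14 and 1.88 on day 3 (-1.51 ± 0.43, edgeR adjusted p = 0.0107), which did not pass in DESeq2 (-1.59), without day 2 replicate 2 (-1.04) or without day 3 replicate 2 (-1.24). Another, chr18:34535754-34536019, rose from 7 counts on day 3 to 32 on day 6 (2.08 ± 0.71, edgeR adjusted p = 0.0366), a call lost in DESeq2 and without any 1 of the 4 libraries (1.51 to 2.64).

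Wnt3, on the plus strand of chromosome 11 (chr11:103774175-103818021), had the fewest regions and the lowest sums. These were 15.3 and 19.1 CPM on day 2, 16.8 and 24.0 on day 3, 12.2 and 15.2 on day 6, 13.9 and 16.2 on day 7 and 14.7 and 16.8 with Gdf11. Only day 3 and day 6 did not overlap among the groups compared. The change from day 3 to day 6 was -0.57 ± 0.20 (edgeR adjusted p = 0.0354), which did not pass in DESeq2 (adjusted p = 0.09), without day 3 replicate 2 (-0.33) or without day 6 replicate 1 (-0.38). Its region with the highest mean, chr11:103809743-103810586, held 6.23 to 11.6 CPM over the 10 libraries and was not called, while it made up 44.0% to 64.9% of the sum in the 5 groups.

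The centre of the region over the start of Wnt3 lies in the span of Wnt9b, the neighbouring gene for another Wnt ligand, so the assignment counted it there. This region, chr11:103773902-103774389, held 16.0 and 21.1 CPM on day 2, 14.3 and 13.6 on day 3, 6.15 and 7.39 on day 6, 6.21 and 6.19 on day 7 and 4.47 and 4.63 with Gdf11. Each of the 4 early libraries exceeded every later one. It fell by 1.06 ± 0.24 from day 3 to day 6 (edgeR adjusted p = 0.00124), a call lost without day 6 replicate 1 (-0.90). Counted with Wnt3, it took the gene's change from day 3 to day 6 to -0.75 ± 0.16 (edgeR adjusted p = 0.000861) and the change from day 2 to day 3 from 0.23 to -0.06, neither of these 2 called. The RefSeq window of this start is shown because the whole of it lies in the region that fell; it spans chr11:103773925-103774224 on the plus strand of GRCm38.p6, and capitals mark the Smad motif CAGAC at bases 116 to 120.
Wnt3 start: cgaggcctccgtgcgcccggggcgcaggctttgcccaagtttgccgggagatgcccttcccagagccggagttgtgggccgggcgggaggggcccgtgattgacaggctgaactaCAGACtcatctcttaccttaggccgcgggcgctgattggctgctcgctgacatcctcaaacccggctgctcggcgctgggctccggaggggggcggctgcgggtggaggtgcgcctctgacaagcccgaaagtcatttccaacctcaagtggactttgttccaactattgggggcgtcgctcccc
The window has a GC content of 65.7%, and neither the Tcf/Lef core nor the Cdx core was found in it. Inside the gene, the region at chr11:103816861-103817040 had 0 counts in both day 2 libraries and 35 on day 3, at least 11.1-fold higher with a floor of 3 counts over the group (edgeR adjusted p = 0.000348). The region at chr11:103795441-103795655 fell from 1.19 and 3.18 CPM on day 3 to 0.24 and 0.684 on day 6 (-2.28 ± 0.79, edgeR adjusted p = 0.0394), a call lost in DESeq2 (-2.30) and without day 3 replicate 2 (-1.47) or day 6 replicate 1 (-1.58).

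The genes whose course over the 10 libraries was most like that of a ligand gene were found by the root mean square difference of log2 CPM after each gene was centred on its mean, over 9473 genes with a mean above the median. For Wnt8a, with a spread of 0.695 about its own mean, they were St8sia3 (0.131), which encodes a sialyltransferase, Nodal (0.136), the TGF-beta family ligand of the epiblast and primitive streak, and Cldn3 (0.14), a claudin of tight junctions. St8sia3 averaged 65.2 CPM on day 2, 59.0 on day 3, 26.7 on day 6, 24.8 on day 7 and 22.0 with Gdf11. Over the same groups Nodal averaged 54.6, 45.7, 22.8, 16.7 and 18.3 CPM, and Cldn3 62.8, 50.7, 24.5, 18.8 and 20.7. For Wnt5b the most similar genes were Serac1 (0.0911), Clint1 (0.121) and Bmp4 (0.134), a BMP ligand. Serac1 averaged 25.3, 44.4, 30.1, 31.7 and 32.3 CPM over these groups. Clint1 averaged 29.8, 48.6, 37.9, 33.9 and 42.8 CPM, and Bmp4 36.1, 60.1, 42.7, 40.9 and 41.6. For Wnt5a the most similar were Dtwd1 (0.127), Baiap2l1 (0.128) and Epha1 (0.132). For Wnt3a these were Adgrg6 (0.116), Ets1 (0.121) and Snrpa (0.122), and for Wnt3 Ccdc92 (0.0873), Reep5 (0.0988) and Vax2 (0.104). The spread of Wnt3, 0.237, was the smallest of the 5, and those of Wnt5a, Wnt3a and Wnt5b were 0.272, 0.295 and 0.315. A small difference from any of these genes therefore says little of a shared course.

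The other genes of the pathway gave a background to these ligands. From day 2 to day 3, 8 of 11 targets and feedback genes rose and none fell, with a median log2 change of 0.84 against 0 for all 18954 genes. Sp5, a transcription factor target, rose 3.44-fold (1.78 ± 0.11), Axin2, a feedback inhibitor, 2.1-fold (1.07 ± 0.10) and the caudal factor Cdx1 3.59-fold (1.84 ± 0.17). Among 18 receptors and co-receptors 3 rose and 1 fell, led by Fzd10 (1.56 ± 0.10) and by Ptk7, a polarity co-receptor (1.04 ± 0.10). Of the 14 other Wnt ligands none rose and 2 fell by the test, Wnt10a (-0.31 ± 0.10) and Wnt7a (-0.40 ± 0.15), and neither fall was called in a fit of those groups alone or with a 10 kb window, where Wnt10a was at 0.22. Of 5 genes of ligand secretion and processing 2 rose, and of 7 R-spondin and Lgr genes 1 rose and 2 fell. Of 14 secreted antagonists 3 rose and 1 fell, and of 12 transducers 3 rose and 1 fell. Over all genes 12.2% were higher and 10.4% lower, and the small counts outside the targets are not read as a response of a list. Among the antagonists, Sfrp1, which binds Wnt ligands, fell (-0.77 ± 0.13) and Dkk1, which binds the co-receptor Lrp6, rose (0.51 ± 0.13). Without 1 library several of these counts moved: no secretion gene passed without day 2 replicate 2 or day 3 replicate 2, 1 antagonist rose without either of these, 1 transducer rose without day 2 replicate 1 or day 3 replicate 2, and no R-spondin or Lgr gene fell without day 2 replicate 2. The targets that rose stayed at 8 or 9. The list of targets holds T, Sp5, Cdx1, Cdx2 and Cdx4, which are also among the caudal markers.

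From day 3 to day 6, with 9.47% of all genes higher and 10.8% lower, counts of 1 or 2 genes in a list lay near these shares. Among the other ligands Wnt1, which is expressed in the dorsal neural tube, rose 2.18-fold (1.13 ± 0.15) and 3 fell, among them Wnt10b (-1.17 ± 0.24). Targets and feedback genes had 2 higher and 4 lower of 11, with Rnf43, which removes Frizzled from the cell surface, lower (-0.73 ± 0.15) and Brachyury, T, higher (0.72 ± 0.16); the call of Rnf43 was lost without day 3 replicate 1, and that of T without day 6 replicate 1 and with a 10 kb window. Receptors had 4 higher and 1 lower of 18, the latter Ptk7 (-0.82 ± 0.10). Antagonists had 2 higher and 3 lower of 14, ligand secretion 1 higher of 5 and transducers 1 higher of 12, the repressor Tcf7l1 (0.69 ± 0.08), while no R-spondin or Lgr gene of 7 passed. Without day 6 replicate 1, 0 targets were higher and 2 lower, 1 antagonist was higher and 1 lower, and 1 other ligand was lower. Without day 6 replicate 2, 2 targets, 1 antagonist and 1 other ligand were lower. The secretion gene was called only without day 6 replicate 2 among the fits that leave out 1 library. From day 6 to day 7, 4 of 14 other ligands rose, Wnt7a (0.79 ± 0.15), Wnt8b (0.66 ± 0.14), Wnt1 (0.55 ± 0.14) and Wnt10a (0.50 ± 0.10), together with 6 of 18 receptors, led by Fzd8 (0.64 ± 0.10), and 1 of 12 transducers, where 3.55% of all genes were higher and 0.681% lower. The transducer was not called without any 1 of the 4 libraries, and 2 other ligands rose without day 6 replicate 2 or day 7 replicate 2. With size-only scaling 3 receptors rose, and without day 6 replicate 1, day 6 replicate 2, day 7 replicate 1 or day 7 replicate 2 it was 3, 1, 4 and 1. The call of Wnt8b was lost without day 6 replicate 2 or day 7 replicate 2, and those of Wnt7a and Wnt10a with a 10 kb window.

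Other genes of the pathway were lower with Gdf11 than on day 7, a comparison in which none of the 5 ligands passed. By the test 9 of 11 targets, 11 of 18 receptors, 5 of 14 other ligands and 3 of 12 transducers were lower and none higher, and 4 of 14 antagonists were lower and 1 higher. Of the 5 secretion genes and the 7 R-spondin and Lgr genes, 1 each was lower. Cdx2 fell by 0.63 ± 0.10, Axin2 by 0.52 ± 0.09, Fzd9 by 0.91 ± 0.13, Fzd2 by 0.73 ± 0.11, Wnt8b by 1.00 ± 0.14 and Wnt7a by 0.77 ± 0.15 on the log2 scale. These counts depend on scaling: all 18954 genes had a median of -0.10, with 390 higher and 2136 lower, and with library size only the median was 0.06, with 987 higher and 592 lower. On that scale 3 of 11 targets, 5 of 18 receptors, 3 of 14 other ligands and 0 of 12 transducers were lower, and 1 receptor and 1 other ligand were higher. Leaving out 1 library gave 5 to 11 receptors and 5 to 7 targets lower: 6 receptors and 5 targets without day 7 replicate 2, and 5 receptors without Gdf11 replicate 1. Without day 7 replicate 2 or Gdf11 replicate 1, 2 other ligands and 1 transducer were lower. Wnt7a was not called with a 10 kb window. Against day 6, 5 of 11 targets were lower with Gdf11 by either scaling, among them Cdx2 (-0.75 ± 0.10), Sp8 (-0.58 ± 0.09) and Cdx1 (-0.99 ± 0.16). Of the other lists 1 receptor of 18, Ptk7, was lower (-0.39 ± 0.10), a call lost in 6 of 14 alternatives. Over all genes 0.638% were higher and 1.27% lower against day 6, and with library size only 255 genes were higher and 188 lower. The targets lower were 3 without day 6 replicate 1, day 6 replicate 2 or Gdf11 replicate 1.

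**Figure D5:**
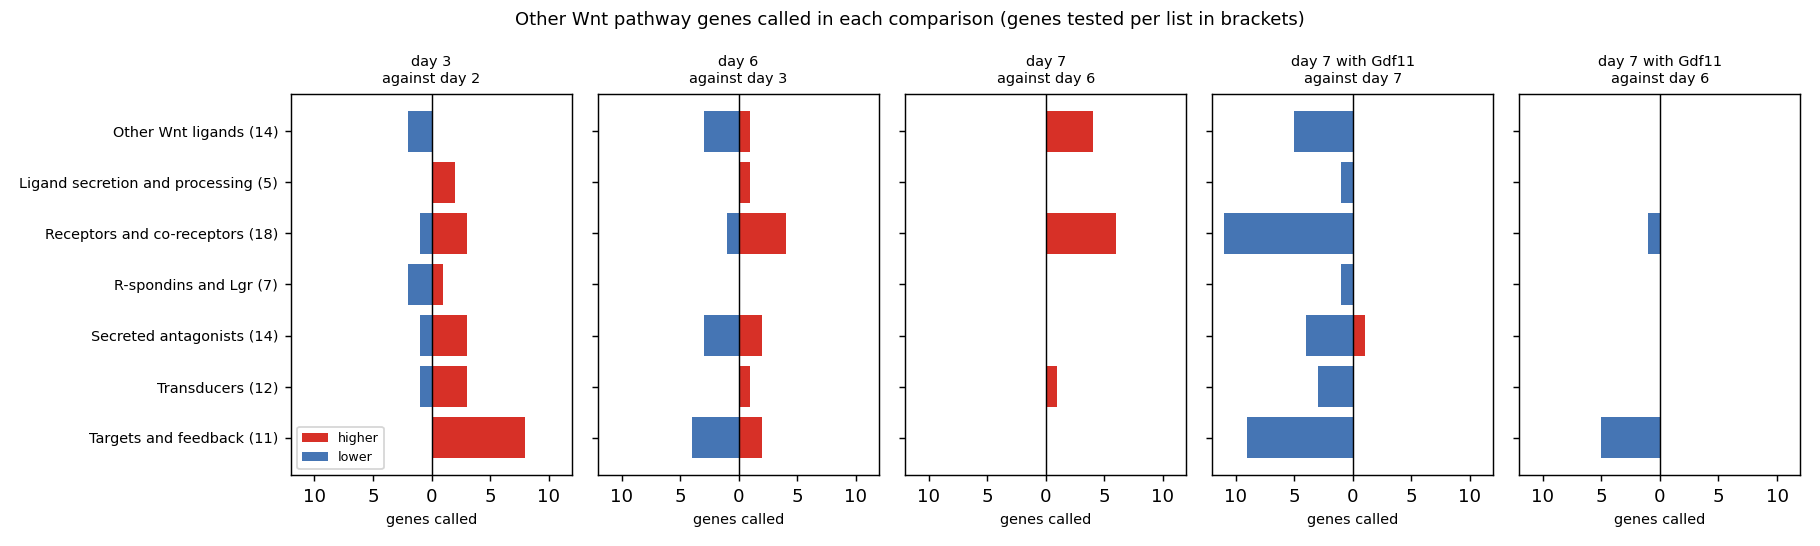
Number of genes called higher (red, to the right) and lower (blue, to the left) in 7 lists of other Wnt pathway genes, in the 5 comparisons, with the genes tested per list in brackets. Targets and feedback genes have 8 of 11 higher on day 3, and receptors have 11 of 18 lower with Gdf11 against day 7.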

How the data were processed

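ATAC-seq, which marks open chromatin by transposase insertion, was measured in 10 mouse libraries, 2 in each of 5 groups. The deposited table holds whole-number counts per merged region, and the authors' peak lists, 1 per library, hold a fold enrichment and a −log10 q per peak. Per the submitters' processing notes, HISAT2 2.1.0, SAMtools, MACS2 2.1.1.20160309, bedtools, HOMER 4.10 and the mm10 build were used, with no role given. Whether insertion sites were shifted and how reads were counted is not given in the sources used here. Names in the deposited peak lists state that duplicates had been removed, and whether this holds for the count table is not given.

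The positions of the merged regions were rebuilt by merging the 10 deposited peak lists, and row n was matched to region n in character order of chromosomes. In that order no region with 0 counts in a library held a peak of that library, against 1095 to 9931 in numeric order. Region centres went to the nearest of 21887 protein-coding RefSeq spans within 50 kb, and where spans overlap, to the one with the nearest end. In all, 190587 regions were assigned, and 7 regions shared by Wnt5b and genes nested in it went to the nested genes.

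Counts were fitted in edgeR 4.0.16 under R 4.3.3 (TMM scaling, factors 0.905 to 1.08, filterByExpr, quasi-likelihood F test) in 1 fit of all 10 libraries without a replicate term, for 173175 regions and 18954 genes, with Benjamini-Hochberg adjustment over all of them and a threshold of 0.05. Alternatives were DESeq2 1.42.0, other scaling, no filter, a replicate block, fits of the compared groups alone, 10 and 100 kb windows and leaving out each library. After the data had been seen, 2 more were added. The first reassigned the region over the start of Wnt3 and that over an end of the Fbxl14 span. The other added the shared regions. Totals per library were 7150334 to 12335735 counts. The p-values and SEs rest on the spread within groups over all 10 libraries, 2 a group. That spread was moderated with values shared over all regions or genes (52.3 and 33.4 prior degrees of freedom). Replicate numbers were not used to pair the samples in the main fit, and whether same-numbered libraries belong together is not known.

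Named were, per comparison, up to 4 called regions per direction by smallest p, and each gene's region with the highest mean. Some of the regions within 1 kb of a start or span end were named, and others there were not. Also named were the 3 most similar genes (pseudocount 1 CPM) and up to 3 called genes per pathway list by smallest p. A few other called regions of Wnt3 and Wnt5a and Wnt1 on day 7 were named beside them after their values were seen. Members, gene lists and motifs were chosen with earlier results of these data known.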

Additional observations from a re-analysis of the deposited data

How the results depend on the processing

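Of the changes of the 5 ligand genes and their called regions under the alternatives, 603 kept direction and side of the threshold, 61 lost a call, 7 gained one and 17 changed sign. No called change among these turned its direction, and of the counts of calls 95 stayed within 1.5 times and 25 did not. Scaling by library size only moved the median log2 change of all genes from -0.10 to 0.06 with Gdf11 against day 7 and from 0.05 to -0.05 on day 7 against day 6. It also turned 673 higher and 129 lower genes on day 7 against day 6 into 326 and 311, and 121 and 241 with Gdf11 against day 6 into 255 and 188. On day 3 against day 2, RLE size factors gave 1745 higher and 2494 lower genes, in place of 2311 and 1980.

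On day 7 against day 6, 2 ligand genes were called with library size only and with the 2 compared groups alone, in place of 1. With Gdf11 against day 7 it was 1 with library size only, and against day 6 it was 2 with a 100 kb window. DESeq2 called 7 regions on day 3 against day 2 and 1 on day 7 against day 6. Of the regions, 1 was called with Gdf11 against day 7 under RLE size factors, library size only, the 2 groups alone and DESeq2 alike. The cause of these shifts was not tested. Without 1 library each, the genes called ranged from 2 to 2, from 2 to 3, from 1 to 1, from 0 to 0 and from 0 to 2 on day 3, day 6, day 7, with Gdf11 against day 7 and with Gdf11 against day 6. The regions called ranged from 7 to 10, from 7 to 12, from 1 to 2, from 1 to 2 and from 2 to 4 in that order.

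The changes that turned sign were all uncalled. The region over its start taken in, Wnt3 stood at -0.06 on day 3, at -0.06 with Gdf11 against day 7 and at -0.00 with Gdf11 against day 6. Without 1 library its change ranged from -0.04 to 0.46 on day 3, from -0.01 to 0.32 on day 7 and from -0.07 to 0.14 with Gdf11 against day 7, where it was -0.05 without day 7 replicate 1. With library size only and Gdf11 against day 7, Wnt3a was at 0.10 and Wnt5a at 0.06, and without 1 library Wnt5a ranged from -0.31 to 0.05. On day 7 against day 6, Wnt5b was at 0.00 with RLE size factors, 0.01 without the filter, 0.02 in DESeq2 and 0.01 with the shared regions, and from -0.05 to 0.06 without 1 library.

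The replicate block gave 3, 3, 1, 0 and 2 genes and 12, 14, 2, 2 and 4 regions in the 5 comparisons, Wnt3a being called on day 3 (0.34, edgeR adjusted p = 0.0405) and Wnt5a with Gdf11 against day 6 (-0.43, edgeR adjusted p = 0.0139). Over all genes it called 1624 on day 7 against day 6, in place of 802, and 1006 with Gdf11 against day 6, in place of 362. The deviations of same-numbered libraries from their group means correlated at -0.001 to 0.064 over 10 pairs of groups. Count noise enters these values, so they cannot show whether same-numbered libraries shared a batch. Replicate 1 was the deeper library and had the lower mitochondrial share in each group. Depth limits the regions below about 1 CPM.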
